A study of Mus musculus with 12 samples.

Results

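The genes described here are 10 factors of meiosis and germ cell development: Hormad1, Majin, Meioc, Smc1b, Sohlh2, Stag3, Stra8, Sycp1, Sycp3 and Taf7l. They were chosen by name, with earlier results of these data known. They are 10 of the 19656 rows of the count table, 8 found under these symbols and 2 under older names that RefSeq lists as synonyms (Gm1564 for Meioc and 1700123I01Rik for Majin). RNA was sequenced in E14 mouse embryonic stem cells (mESCs) and in epiblast-like cells (EpiLCs) made from them, with 3 libraries in each of 4 groups: mESCs re-expressing mutant EPOP, mESCs re-expressing WT EPOP, EpiLCs re-expressing mutant EPOP and EpiLCs re-expressing WT EPOP. EPOP is a partner of Polycomb repressive complex 2, and the series asks how EPOP restricts the targeting of this complex to chromatin. The mESCs were untreated in 2i/LIF medium, which holds a MEK and a GSK3 inhibitor and keeps cells naive. The EpiLCs were differentiated on fibronectin with the growth factors activin A and bFGF and serum replacement, and stand for the epiblast just after implantation. All 4 groups express a returned EPOP, so cells with the endogenous protein or with none were not analysed here, and neither the kind of mutation nor the number of clones is stated in the labels. The table's columns name the non-WT cells by a code, D5, that the labels do not spell out. It was taken as the mutant, the labels' only other genotype, and every direction of mutant against WT rests on that.

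Meiosis reduces the chromosome set of germ cells through programmed DNA breaks, pairing of homologous chromosomes and their joining by the synaptonemal complex. Its genes are normally silent in somatic cells, where promoter DNA methylation and repressors such as the MGA, MAX, E2F6 and PCGF6 proteins of a variant Polycomb complex hold them down, and mESCs transcribe a number of them at low levels. In the germ line, SOHLH2 and TAF7L act in transcription, STRA8 and MEIOC drive entry into and progress through meiosis, HORMAD1, SYCP1 and SYCP3 build the chromosome axis and synaptonemal complex, SMC1B and STAG3 are cohesin subunits, and MAJIN ties telomeres to the nuclear envelope.

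Total counts in named genes ran between 7714164 and 10652151 per library. The naive markers (Esrrb, Klf4, Zfp42, Tbx3, Tfcp2l1, Nr0b1 and Klf2) summed to 4034 to 4111 CPM (read counts scaled to a common library size by TMM) in mutant mESCs, 3989 to 4169 in WT mESCs, 166.5 to 177.6 in mutant EpiLCs and 371.0 to 396.2 in WT EpiLCs. The EpiLC markers (Fgf5, Otx2, Pou3f1, Dnmt3b, Dnmt3a and Lef1) summed to 1416 to 1437 CPM in mutant EpiLCs and 1310 to 1363 in WT EpiLCs, and to 160.2 to 164.3 CPM in mutant mESCs and 169.1 to 187.9 CPM in WT mESCs. Each culture thus carried the markers of its label.

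All 10 are protein-coding genes and are spread over 8 chromosomes in GRCm38 (GENCODE M21). Sohlh2 lies on chromosome 3 from 55182028 to 55209957, Hormad1 on chromosome 3 from 95559677 to 95587671 and Sycp1 on chromosome 3 from 102818499 to 102936100. Stag3 lies on chromosome 5 from 138280240 to 138312393 and Stra8 on chromosome 6 from 34920163 to 34939344. Sycp3 is on chromosome 10 from 88459569 to 88473236, Meioc on chromosome 11 from 102663716 to 102682237 and Smc1b on chromosome 15 from 85064689 to 85131964. Majin is on chromosome 19 from 6184388 to 6224225 and Taf7l on chromosome X from 134460118 to 134476490. Of the 1264 exon bases of Sycp3, 660 (52.2%) also lie in exons of Chpt1 on the opposite strand, and since no source used here states a stranded count, reads in those exons cannot be told apart between Sycp3 and Chpt1. The other 9 genes share no exon base with another annotated gene.

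RefSeq (GRCm38.p6) gives a promoter window for 9 of the 10 genes, Majin being without an entry. The 250 bases before each start were searched on both strands for the E-box CACGTG, the palindrome that MAX and its partners bind, and for TCCCGC, the core of E2F sites, read as GCGGGA on the other strand. The E-box was found in the windows of 5 of the 9 genes (Hormad1, Stag3, Sycp1, Sycp3 and Taf7l), against 6.02% of all 32851 RefSeq windows of that length. The E2F core was found in the windows of 4 of the 9 (Hormad1, Meioc, Smc1b and Sycp3), against 16.9% of all windows. The RefSeq starts of Stag3 (138280509), Stra8 (34920948) and Meioc (102665585) lie inside the gene spans given above. Their windows, with the matches of Stag3 and Meioc, therefore lie within the annotated genes and not before them. The starts of Smc1b (85131957), Sohlh2 (55182044) and Sycp3 (88459587) lie just inside their spans. At Smc1b, the base at -200 already lies in an annotated exon, so its window too is not plain upstream sequence. The windows held 5 CpG dinucleotides at Stra8 and 12 to 26 at the other 8 genes, where the median of all windows was 6. Both motifs contain a CpG, and the shares over all windows were not matched for CpG count, so they are no like baseline for these windows. A match describes letters and not a bound site. The sequences below hold the bases from -200 that lie in no annotated exon, so that of Sycp3 ends at -19 and that of Sohlh2 at -17. They are those of 4 E-box holders, of which Taf7l and Hormad1 fell in mutant mESCs and Sycp1 and Sycp3 were not called, and of Sohlh2, which fell but holds neither motif. Each reads 5′ to 3′ along the gene's strand, and capitals mark E-boxes and E2F cores. Taf7l is given from chrX:134476491-134476690 on the minus strand and Hormad1 from chr3:95559477-95559676 on the plus strand. Sycp1 is given from chr3:102936101-102936300 on the minus strand, Sycp3 from chr10:88459387-88459568 and Sohlh2 from chr3:55181844-55182027, both on the plus strand.
Taf7l: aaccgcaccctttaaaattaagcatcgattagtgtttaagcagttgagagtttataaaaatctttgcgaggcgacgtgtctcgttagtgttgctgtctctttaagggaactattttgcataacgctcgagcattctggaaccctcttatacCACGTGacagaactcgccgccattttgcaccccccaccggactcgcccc
Hormad1: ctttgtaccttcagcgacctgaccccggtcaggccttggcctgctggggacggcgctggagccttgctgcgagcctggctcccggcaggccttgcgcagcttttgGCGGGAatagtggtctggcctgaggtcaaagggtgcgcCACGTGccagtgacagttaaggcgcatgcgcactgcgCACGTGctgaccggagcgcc
Sycp1: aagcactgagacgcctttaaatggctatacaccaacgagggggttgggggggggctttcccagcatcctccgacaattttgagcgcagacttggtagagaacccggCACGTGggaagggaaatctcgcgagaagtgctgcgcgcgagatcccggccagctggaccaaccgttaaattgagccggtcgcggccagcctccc
Sycp3: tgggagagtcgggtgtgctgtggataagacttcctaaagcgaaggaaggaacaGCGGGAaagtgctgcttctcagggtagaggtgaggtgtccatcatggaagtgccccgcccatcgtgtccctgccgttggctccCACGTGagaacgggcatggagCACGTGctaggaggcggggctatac
Sohlh2: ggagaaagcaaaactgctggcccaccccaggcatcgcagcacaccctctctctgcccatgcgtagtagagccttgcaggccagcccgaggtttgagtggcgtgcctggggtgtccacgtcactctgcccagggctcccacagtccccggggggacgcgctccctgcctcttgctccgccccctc
The E-box of Taf7l spans positions -49 to -44 from the RefSeq start, and those of Hormad1 span -57 to -52 and -20 to -15.

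**Figure D1:**
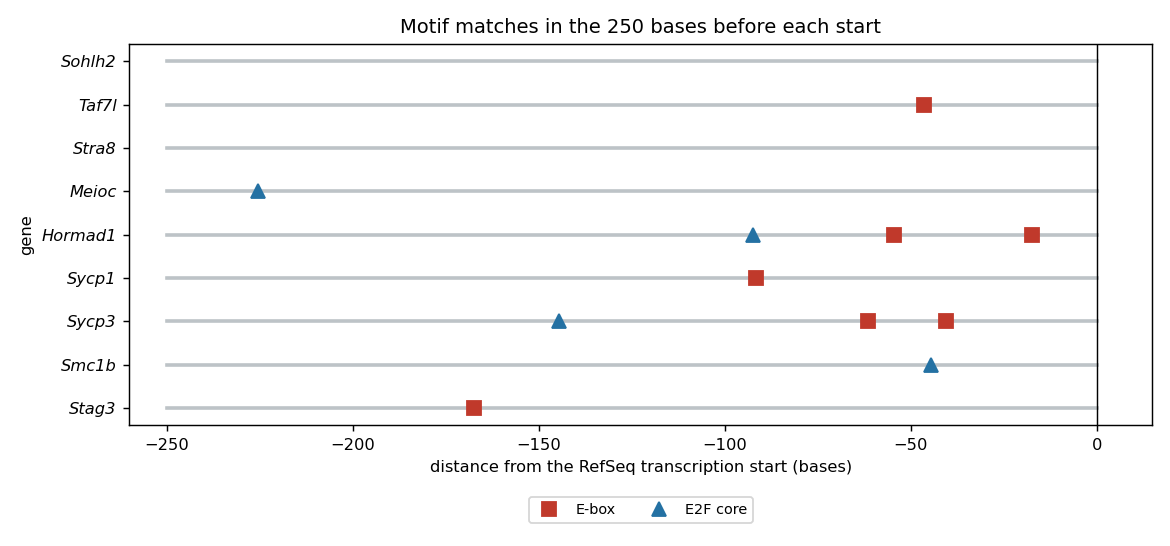
Motif matches in the 250 bases before the RefSeq start of 9 genes, by distance from the start in bases; red squares are E-boxes and blue triangles are E2F cores. Hormad1 and Sycp3 each carry both motifs, and Sohlh2 and Stra8 carry neither.

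In mESCs, 5 of the 10 genes fell in mutant against WT cells and none rose. They were Sohlh2, Taf7l, Smc1b, Hormad1 and Meioc, and their falls ran between 1.68-fold for Meioc and 4.12-fold for Taf7l. Stra8, Sycp1, Sycp3, Stag3 and Majin were not called. The share of all 13879 tested genes called lower in this comparison was 10.1%, and the share called higher was 8.40%. No gene of the 10 was higher at an unadjusted p under 0.05 in edgeR or by DESeq2, and DESeq2 called 5 lower. The mutant and WT libraries did not overlap for the 5 called genes, all lower, as for 16.4% of all tested genes. The median log2 fold change of the 10 was -0.43, beside -0.00021 over all tested genes. In EpiLCs, 4 of the 10 fell (Sohlh2, Taf7l, Smc1b and Stag3) and none rose, where 8.82% of all tested genes were called lower and 7.02% higher. At an unadjusted p under 0.05, 5 were lower and none higher in EpiLCs, and DESeq2 called 4 lower and none higher. The libraries did not overlap for 6 of the 10, all lower in mutant EpiLCs, as for 16.0% of all tested genes. The median of the 10 was -0.33 in EpiLCs, beside -0.00087 over all tested genes. Sohlh2, Taf7l and Smc1b fell in both states, as did 2.95% of all tested genes. Since the 10 were chosen with earlier results of these data known, their counts beside these shares are a description and no test. Calls throughout are by the edgeR quasi-likelihood test at a Benjamini-Hochberg adjusted p under 0.05 over all tested genes. In bulk RNA, fewer cells that express a gene and less RNA per cell cannot be told apart.

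**Figure D2:**
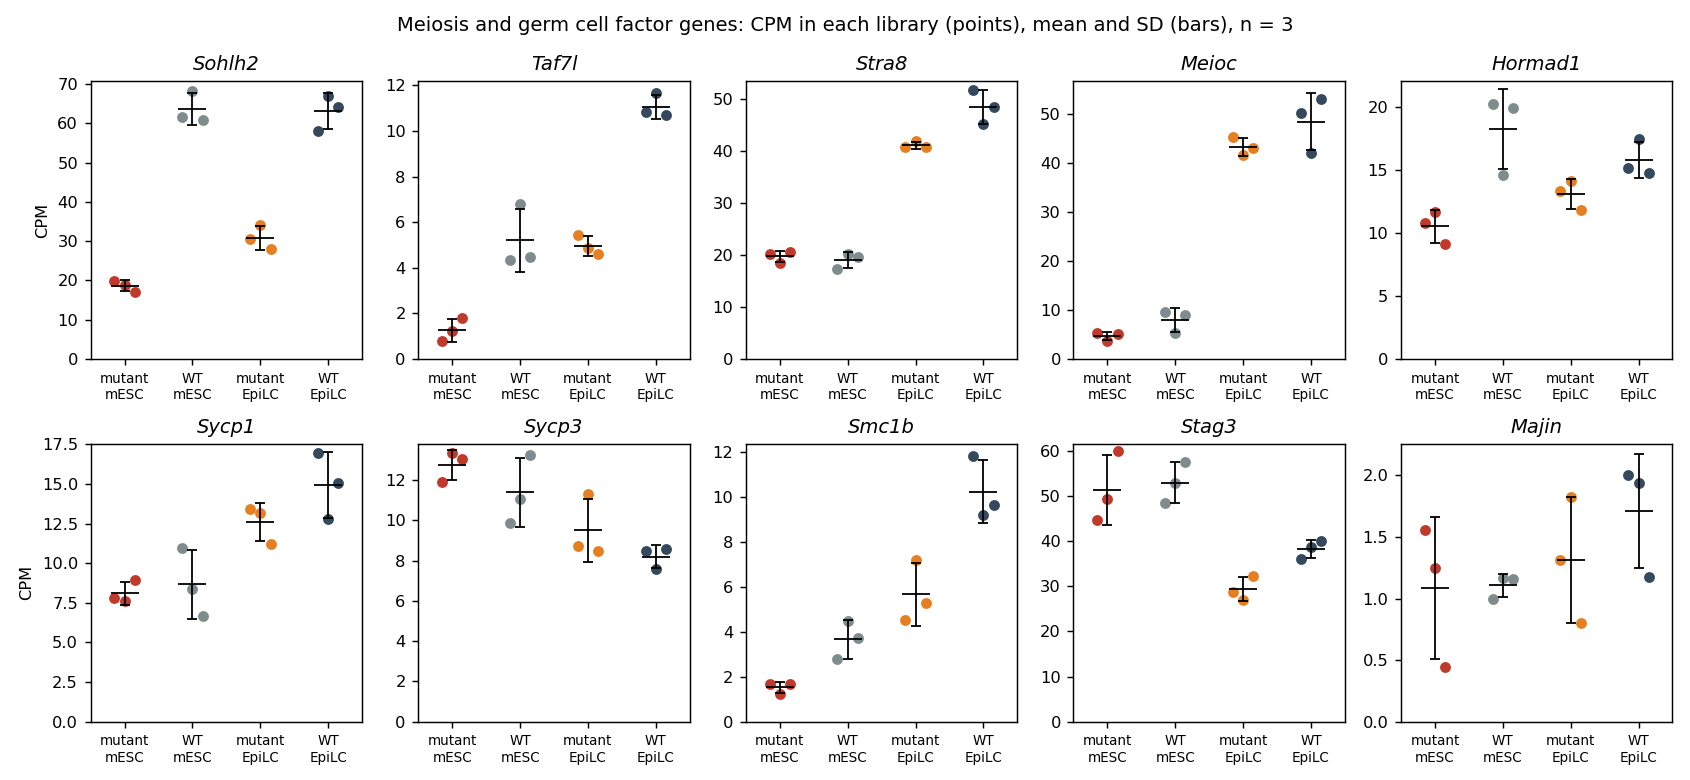
CPM of the 10 genes in each of the 12 libraries (points), with the mean and SD of the 3 libraries of a group (bars). Sohlh2 lies at 17.2 to 19.9 CPM in mutant mESCs and at 60.9 to 68.2 in WT mESCs, and Meioc, Stra8, Taf7l and Smc1b lie higher in EpiLCs than in mESCs of the same genotype.

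Sohlh2, a basic helix-loop-helix factor needed for the early differentiation of spermatogonia and oocytes, had 19.9, 18.7 and 17.2 CPM in the mutant mESC libraries, against 61.5, 68.2 and 60.9 CPM in the WT mESC libraries. The mutant libraries all lay far below the WT ones, without overlap. The log2 fold change was -1.77 ± 0.09 (standard error; edgeR adjusted p = 7.81e-36), 3.42-fold lower. In EpiLCs it had 30.7, 34.1 and 28.0 CPM in mutant libraries, against 58.1, 66.9 and 64.1 CPM in WT libraries. The groups were again separate, with a log2 fold change of -1.03 ± 0.09 (standard error; edgeR adjusted p = 3.60e-20), 2.04-fold lower.

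Taf7l, the germ cell relative of the general transcription factor subunit TAF7, rested on 7 to 114 counts per library. It had 0.779, 1.25 and 1.78 CPM in mutant mESCs, against 4.32, 6.80 and 4.50 CPM in WT mESCs. The highest mutant value lay below the lowest WT value, and the log2 fold change was -2.04 ± 0.30 (standard error; edgeR adjusted p = 2.47e-08). In EpiLCs it had 5.44, 4.87 and 4.59 CPM in mutant libraries, against 10.8, 11.6 and 10.69 CPM in WT libraries, also without overlap. That was a log2 fold change of -1.15 ± 0.22 (standard error; edgeR adjusted p = 1.55e-05), 2.22-fold lower.

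Stra8, the retinoic acid responsive gene that starts the meiotic programme, had 20.1, 18.5 and 20.6 CPM in mutant mESCs, against 17.3, 20.2 and 19.7 CPM in WT mESCs. These groups overlapped, and the 95% interval of the log2 difference ran between -0.17 and 0.27 (edgeR adjusted p = 0.812). In EpiLCs Stra8 had 40.7, 41.9 and 40.7 CPM in mutant libraries, against 51.7, 45.2 and 48.4 CPM in WT libraries. All mutant values lay below the WT ones, but the log2 fold change of -0.24 ± 0.09 (SE) was not called (edgeR adjusted p = 0.0579). It was called in the authors' deposited table for this comparison (log2 fold change -0.23, with mutant over WT as its sign, and false discovery rate 0.0138), without WT EpiLC replicate 2 (adjusted p = 0.0494) and in a fit to the 6 EpiLC libraries alone (adjusted p = 0.0366).

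Meioc, whose protein works with YTHDC2 to keep germ cells in meiotic prophase, had 5.23, 3.75 and 5.01 CPM in mutant mESCs, against 9.64, 5.24 and 8.99 CPM in WT mESCs. The groups met almost exactly at mutant replicate 1 and WT replicate 2, without overlap. The log2 fold change was -0.75 ± 0.19 (standard error; edgeR adjusted p = 0.00141). In EpiLCs the groups overlapped, at 43.3 ± 1.8 CPM in mutant and 48.4 ± 5.7 CPM in WT cells (SD, n = 3 each), and Meioc was not called (edgeR adjusted p = 0.326).

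Hormad1, an axis protein that promotes DNA breaks and marks unsynapsed chromosomes, had 10.8, 11.7 and 9.13 CPM in mutant mESCs, against 20.3, 14.6 and 19.9 CPM in WT mESCs. WT replicate 2 stood nearest to the mutant libraries, and the groups did not overlap. The log2 fold change was -0.78 ± 0.15 (standard error; edgeR adjusted p = 1.85e-05), 1.72-fold lower. In EpiLCs it had 13.3, 14.1 and 11.8 CPM in mutant libraries, against 15.2, 17.5 and 14.8 CPM in WT libraries, separate but not called (log2 fold change -0.28 ± 0.15, SE; edgeR adjusted p = 0.214).

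Sycp1 and Sycp3 were not called in either state. Sycp1, the transverse filament gene, averaged 8.10 ± 0.71 CPM in mutant and 8.67 ± 2.2 CPM in WT mESCs, and 12.6 ± 1.2 CPM in mutant and 14.9 ± 2.1 CPM in WT EpiLCs (SD, n = 3 each). The 95% interval of its log2 fold change ran between -0.46 and 0.25 in mESCs and between -0.55 and 0.07 in EpiLCs. Sycp3, a lateral element gene, averaged 12.8 ± 0.75 CPM in mutant and 11.4 ± 1.7 CPM in WT mESCs, and 9.51 ± 1.6 CPM in mutant and 8.20 ± 0.56 CPM in WT EpiLCs (SD, n = 3 each). It was the gene of the 10 with positive log2 fold changes in both states, 0.17 ± 0.16 and 0.21 ± 0.18 (SE), with edgeR adjusted p of 0.523 and 0.489. Chpt1, the gene on the other strand, averaged 18.2 ± 2.5 CPM in mutant and 20.2 ± 1.0 CPM in WT mESCs, and 14.8 ± 1.6 CPM in mutant and 17.9 ± 1.9 CPM in WT EpiLCs. Its part in the Sycp3 counts was not tested.

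Among the cohesin genes, Smc1b had 1.67, 1.25 and 1.67 CPM in mutant mESCs, against 2.77, 4.47 and 3.73 CPM in WT mESCs. The groups were separate at counts of 12 to 46 per library, and the log2 fold change was -1.26 ± 0.31 (standard error; edgeR adjusted p = 0.00123). In EpiLCs Smc1b had 4.50, 7.18 and 5.28 CPM in mutant libraries, against 11.8, 9.20 and 9.63 CPM in WT libraries. These were also separate, with a log2 fold change of -0.87 ± 0.22 (standard error; edgeR adjusted p = 0.00188).

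Stag3, the meiotic partner of SMC1B in cohesin, had 44.6, 49.5 and 59.9 CPM in mutant mESCs, against 48.5, 52.8 and 57.6 CPM in WT mESCs. These groups overlapped (log2 interval -0.21 to 0.12, edgeR adjusted p = 0.783). In EpiLCs it had 28.7, 27.0 and 32.2 CPM in mutant libraries, against 36.0, 38.7 and 40.05 CPM in WT libraries. Here the groups were separate and the log2 fold change was -0.38 ± 0.09 (standard error; edgeR adjusted p = 0.00142), 1.30-fold lower. Majin rested on 4 to 19 counts per library and was not called in either state. Its log2 interval from the fit ran between -1.03 and 0.98 in mESCs and between -1.30 and 0.52 in EpiLCs. A change of either sign within these intervals was not excluded.

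**Figure D3:**
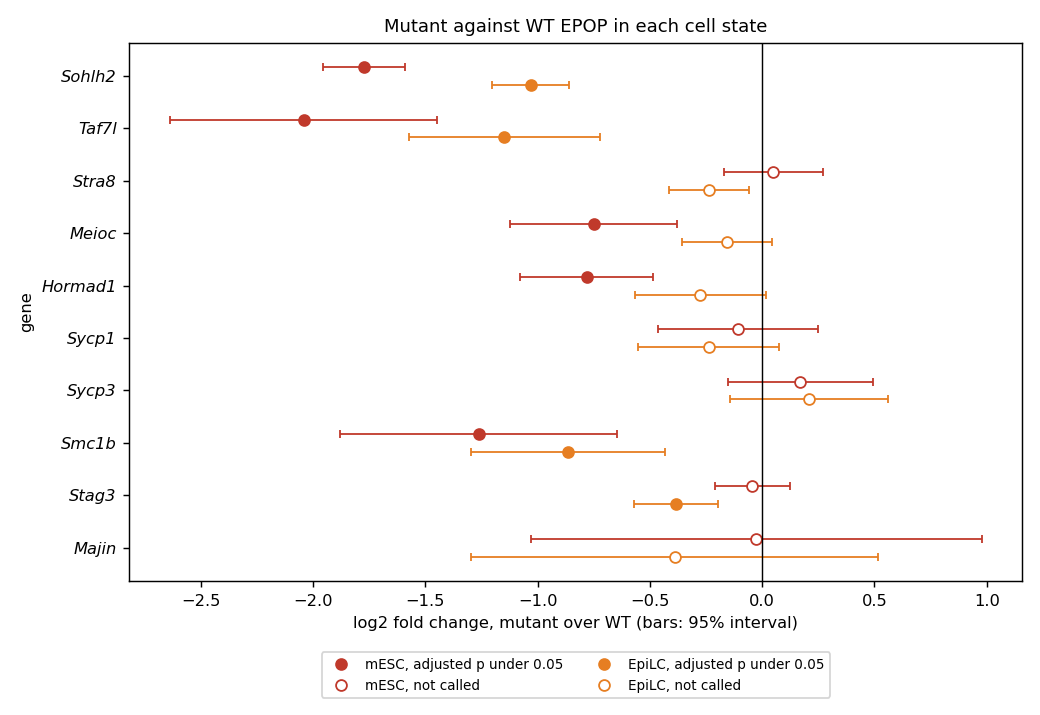
Log2 fold change of mutant over WT for the 10 genes in mESCs (red) and EpiLCs (orange), with the 95% interval; filled points are called. Sohlh2, Taf7l and Smc1b lie left of 0 in both states, and Stag3 is called in EpiLCs.

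The mutant effect itself differed between the states for Sohlh2. Its difference of effects, the log2 fold change in EpiLCs minus that in mESCs, was 0.74 ± 0.13 (standard error; edgeR adjusted p = 3.95e-06), so the fall was smaller in EpiLCs. It was the 1 gene of the 10 called in this test, where 4.68% of all tested genes had a positive and 5.05% a negative call, 9.73% in all. Among the others, Meioc had a difference of 0.59 ± 0.21 (adjusted p = 0.0575), Hormad1 one of 0.51 ± 0.21 (adjusted p = 0.121), Stag3 one of -0.34 ± 0.13 (adjusted p = 0.0729) and Taf7l one of 0.89 ± 0.38 (standard error; edgeR adjusted p = 0.133). Meioc was called without WT mESC replicate 2 (adjusted p = 0.00353) or WT EpiLC replicate 3 (adjusted p = 0.0338), and Hormad1 without WT mESC replicate 2 (adjusted p = 0.0418). Stag3 was called without mutant mESC replicate 1, mutant EpiLC replicate 3 or WT mESC replicate 3 (adjusted p = 0.0240, 0.0423 and 0.0367). No gene had a called negative difference in edgeR or DESeq2, while 2 were negative at an unadjusted p under 0.05. So Stag3, called in EpiLCs and not in mESCs, and Hormad1 and Meioc, called in mESCs and not in EpiLCs, were not called for a difference between the states in the fit without a replicate block. With the replicate number as a block, Meioc was called (log2 0.60, edgeR adjusted p = 0.0428).

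Over the step to the epiblast-like state, the share of the 10 genes called either way was near that of all tested genes with either protein. By direction, more of the 10 were called higher than lower, while all tested genes were called about equally in both directions. This is a description and no test. In mutant cells 6 of the 10 rose in EpiLCs against mESCs (Meioc, Taf7l, Smc1b, Stra8, Sohlh2 and Sycp1) and 2 fell (Stag3 and Sycp3), where 33.4% of all tested genes were called higher and 32.6% lower, 66.0% in all. Libraries did not overlap for 7 higher genes, Hormad1 being the one not called, and for 2 lower genes, against 34.4% and 33.7% of all tested genes. In WT cells 5 rose (Meioc, Smc1b, Stra8, Taf7l and Sycp1) and 2 fell (Stag3 and Sycp3), where 31.7% of all tested genes were called higher and 31.0% lower, 62.7% in all. Libraries did not overlap for 6 higher genes, Majin being the one not called, and for 2 lower genes, against 33.3% and 31.9% of all tested genes. The medians of the 10 were 0.68 in mutant and 0.70 in WT cells, beside 0.0014 and 0.0064 over all tested genes.

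Meioc changed most over this step in these 10 genes, to 43.3 ± 1.8 CPM in mutant EpiLCs against 4.66 ± 0.80 CPM in mutant mESCs, and to 48.4 ± 5.7 CPM in WT EpiLCs against 7.96 ± 2.4 CPM in WT mESCs (SD, n = 3 each). It was 9.31-fold higher in mutant and 6.17-fold higher in WT EpiLCs (edgeR adjusted p = 6.25e-43 and 1.03e-38). Stra8 was 2.08-fold higher in mutant and 2.54-fold higher in WT EpiLCs, and Smc1b was 3.64-fold higher in mutant and 2.77-fold higher in WT EpiLCs. Taf7l was 3.90-fold higher in mutant and 2.10-fold higher in WT EpiLCs. Sycp1 rose by 1.56-fold in mutant and 1.71-fold in WT cells.

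Sohlh2 rose 1.66-fold in mutant cells (log2 0.73 ± 0.10, SE; edgeR adjusted p = 1.83e-10), while in WT cells its log2 difference between the states was -0.01 ± 0.08 (standard error; edgeR adjusted p = 0.894). This contrast between the genotypes is the same test as the difference of effects given above. Stag3 fell in EpiLCs by 0.81 log2 units in mutant cells and by 0.47 in WT cells (edgeR adjusted p = 4.29e-14 and 1.65e-06). Sycp3 fell by 0.43 in mutant and by 0.47 in WT cells (edgeR adjusted p = 0.0179 and 0.0141). The Sycp3 call in mutant cells was lost without mutant mESC replicate 2, mutant EpiLC replicate 1 or mutant EpiLC replicate 3 (adjusted p = 0.0517, 0.0833 and 0.0893), and that in WT cells without WT mESC replicate 3 or WT EpiLC replicate 2 (adjusted p = 0.0982 and 0.0580). Chpt1, on the other strand, fell by 0.31 in mutant cells (edgeR adjusted p = 0.0390) and had a log2 difference of -0.18 in WT cells (edgeR adjusted p = 0.237). Hormad1 was not called in either genotype (edgeR adjusted p = 0.0702 in mutant and 0.226 in WT cells). It was called in mutant cells without mutant mESC replicate 2 or mutant EpiLC replicate 3 (higher, adjusted p = 0.0482 and 0.0465) and in WT cells without WT mESC replicate 2 (lower, adjusted p = 0.0407).

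**Figure D4:**
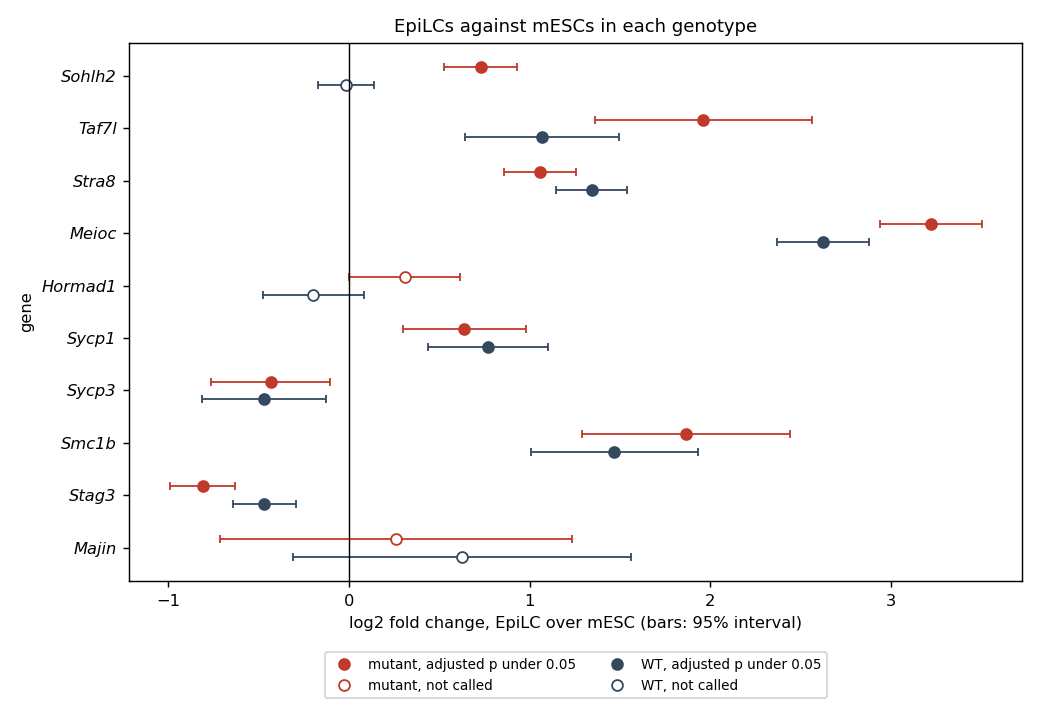
Log2 fold change of EpiLCs over mESCs for the 10 genes in mutant (red) and WT (dark blue) cells, with the 95% interval; filled points are called. Meioc lies furthest right with either protein, Stag3 and Sycp3 lie left of 0, and Sohlh2 is called in mutant cells.

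The levels of different genes were compared per length, with the authors' deposited TPM values. In mutant mESCs, Stra8 (27.1 ± 1.6 TPM), Stag3 (24.2 ± 3.8 TPM) and Sycp3 (22.7 ± 1.3 TPM) stood first with overlapping libraries, followed by Sohlh2 (15.8 ± 1.1 TPM), Hormad1 (10.95 ± 1.3 TPM) and Sycp1 (4.70 ± 0.44 TPM), each apart from the next. Meioc (2.03 ± 0.36 TPM), Majin, Taf7l and Smc1b (0.756 ± 0.12 TPM) came last, each overlapping its neighbour. In WT mESCs, Sohlh2 led at 55.5 ± 3.7 TPM, apart from Stra8 (26.9 ± 2.0 TPM), Stag3, Sycp3 and Hormad1 (19.5 ± 3.4 TPM), which overlapped in turn, and the other 5 genes had group means of 1.41 to 5.52 TPM. In mutant EpiLCs, Stra8 led at 59.6 ± 0.43 TPM, ahead of Sohlh2 (27.7 ± 2.5 TPM) and Meioc (20.0 ± 0.98 TPM). In WT EpiLCs, Stra8 (72.1 ± 5.3 TPM), Sohlh2 (58.1 ± 3.8 TPM) and Meioc (22.9 ± 2.7 TPM) were in the same order, with separate values for Stra8 against Sohlh2 and for Sohlh2 against Meioc. Majin had the lowest mean in both kinds of EpiLC, at 1.71 ± 0.65 TPM in mutant and 2.29 ± 0.63 TPM in WT cells, overlapping Smc1b in mutant but not in WT cells.

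Of 53 further genes on 4 lists, 46 were in the table and 32 passed the filter on low counts. In mESCs 6 of these 32 fell and 1 rose in mutant cells (median log2 fold change -0.05), where 10.1% of all tested genes were called lower and 8.40% higher, 18.5% in all. In EpiLCs 7 of the 32 fell and none rose, where 8.82% of all tested genes were called lower and 7.02% higher (median -0.11; 1 higher at an unadjusted p under 0.05, none by DESeq2, which called 4 lower). Among 8 tested genes on the list of synaptonemal complex and axis genes, 4 fell and 1 rose in mESCs. The list is broad and also holds Tex15 and Tex11, which are given below with other roles. Tex15, a germ cell gene needed for meiotic recombination and transposon silencing, averaged 4.43 ± 0.74 CPM in mutant and 12.9 ± 2.6 CPM in WT mESCs (edgeR adjusted p = 5.03e-10). Six6os1, a central element gene, averaged 2.97 ± 0.28 CPM in mutant and 6.38 ± 1.6 CPM in WT mESCs (edgeR adjusted p = 2.06e-04). The others, chosen after their values were seen, were Tex11, a germ cell gene needed for recombination and synapsis, and Syce1, a central element gene, which fell, and Hormad2, which averaged 4.71 ± 0.52 CPM in mutant and 2.66 ± 0.48 CPM in WT mESCs and rose (edgeR adjusted p = 0.0383). In EpiLCs 2 of the 8 fell, Tex15 by 0.58 and Tex11 by 0.57 log2 units (edgeR adjusted p = 0.0267 and 0.00103).

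Of 4 tested genes for other meiotic cohesin and telomere attachment factors, none was called in either state by edgeR or DESeq2. At an unadjusted p under 0.05, none was called in mESCs and 1 was higher in EpiLCs. Of 11 tested recombination genes, none was called in mESCs by either tool or at an unadjusted p under 0.05. In EpiLCs Hsf2bp fell, by 0.24 log2 units (edgeR adjusted p = 0.0464), while DESeq2 called none of the 11. Of 9 tested regulators of meiotic entry and germ cells, 2 fell in mESCs and 4 in EpiLCs, where 10.1% and 8.82% of all tested genes were called lower. Dazl, an RNA-binding protein of germ cells, averaged 12.3 ± 0.43 CPM in mutant and 27.6 ± 2.6 CPM in WT mESCs (edgeR adjusted p = 2.46e-12), and 10.1 ± 1.1 CPM in mutant and 14.1 ± 1.6 CPM in WT EpiLCs (edgeR adjusted p = 0.0117). Dmrt1 fell in mESCs by 0.88 log2 units (edgeR adjusted p = 0.00279), and Mybl1, a transcription factor of meiotic prophase in males, fell in EpiLCs by 0.61 (edgeR adjusted p = 8.24e-04). The other 2 in EpiLCs, Taf4b and Rfx2, were chosen after their values were seen.

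Of 8 primordial germ cell factors, the earliest germ line genes, none was called in mESCs by edgeR, by DESeq2 or at an unadjusted p under 0.05. In EpiLCs 4 fell, where 8.82% of all tested genes were called lower. Tfap2c averaged 3.00 ± 0.64 CPM in mutant and 9.90 ± 1.9 CPM in WT EpiLCs (edgeR adjusted p = 8.34e-14), and Prdm14 averaged 0.144 ± 0.13 CPM in mutant and 0.712 ± 0.46 CPM in WT EpiLCs (edgeR adjusted p = 0.0123). Prdm1 and Kit, chosen after their values were seen, were the others. All 4 had a called negative difference of effects (edgeR adjusted p of 0.0187 for Prdm1, 0.0329 for Prdm14, 1.09e-12 for Tfap2c and 1.24e-06 for Kit). DESeq2 called 3 negative differences among the 8. Of all tested genes, 5.05% had a called negative difference by edgeR. The 7 naive markers likewise all fell in mutant EpiLCs (median log2 fold change -1.09) with none lower in mutant mESCs, and all 7 had a called negative difference of effects. Their part in the result on these factors was not tested.

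Of the 6 mitotic or general counterparts of these genes, 1 rose and 1 fell in mutant against WT mESCs, and 1 fell in EpiLCs. Of all tested genes, 18.5% were called either way in mESCs and 15.8% in EpiLCs. Taf7 fell in mutant mESCs by 0.20 log2 units (edgeR adjusted p = 0.00201) and had a log2 fold change of -0.13 in EpiLCs (edgeR adjusted p = 0.0940). Smc1a had log2 fold changes of 0.12 in mESCs and 0.08 in EpiLCs (edgeR adjusted p = 0.0771 and 0.246). Stag1 and Stag2 had log2 fold changes between -0.05 and 0.08 and were not called in either state. Smc3 rose by 0.12 in mESCs (edgeR adjusted p = 0.0311) and Rad21 fell by 0.13 in EpiLCs (edgeR adjusted p = 0.0117). Over the step from mESCs to EpiLCs, 5 of the 6 were called in mutant cells and 4 in WT cells, where 66.0% and 62.7% of all tested genes were called. Stag2 was higher by 0.98 log2 units in mutant and 0.94 in WT EpiLCs.

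Of 14 genes known to repress germline genes in mESCs, 3 rose and 1 fell in mutant mESCs, where 8.40% of all tested genes were called higher and 10.1% lower. Dnmt3a, a DNA methyltransferase, averaged 53.6 ± 1.6 CPM in mutant and 72.8 ± 5.3 CPM in WT mESCs (edgeR adjusted p = 4.86e-10). Pcgf6, a subunit of the variant Polycomb complex, rose by 0.21 log2 units (edgeR adjusted p = 0.0125), as did L3mbtl2 by 0.21 and Mga by 0.16, the last 2 chosen after their values were seen. In EpiLCs Dnmt3b rose by 0.41 and Dnmt3a fell by 0.33 (edgeR adjusted p = 8.61e-15 and 1.32e-11), and the other 12 were not called. In that comparison 7.02% of all tested genes were called higher and 8.82% lower. Whether these levels bear on the 10 genes was not tested.

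**Figure D5:**
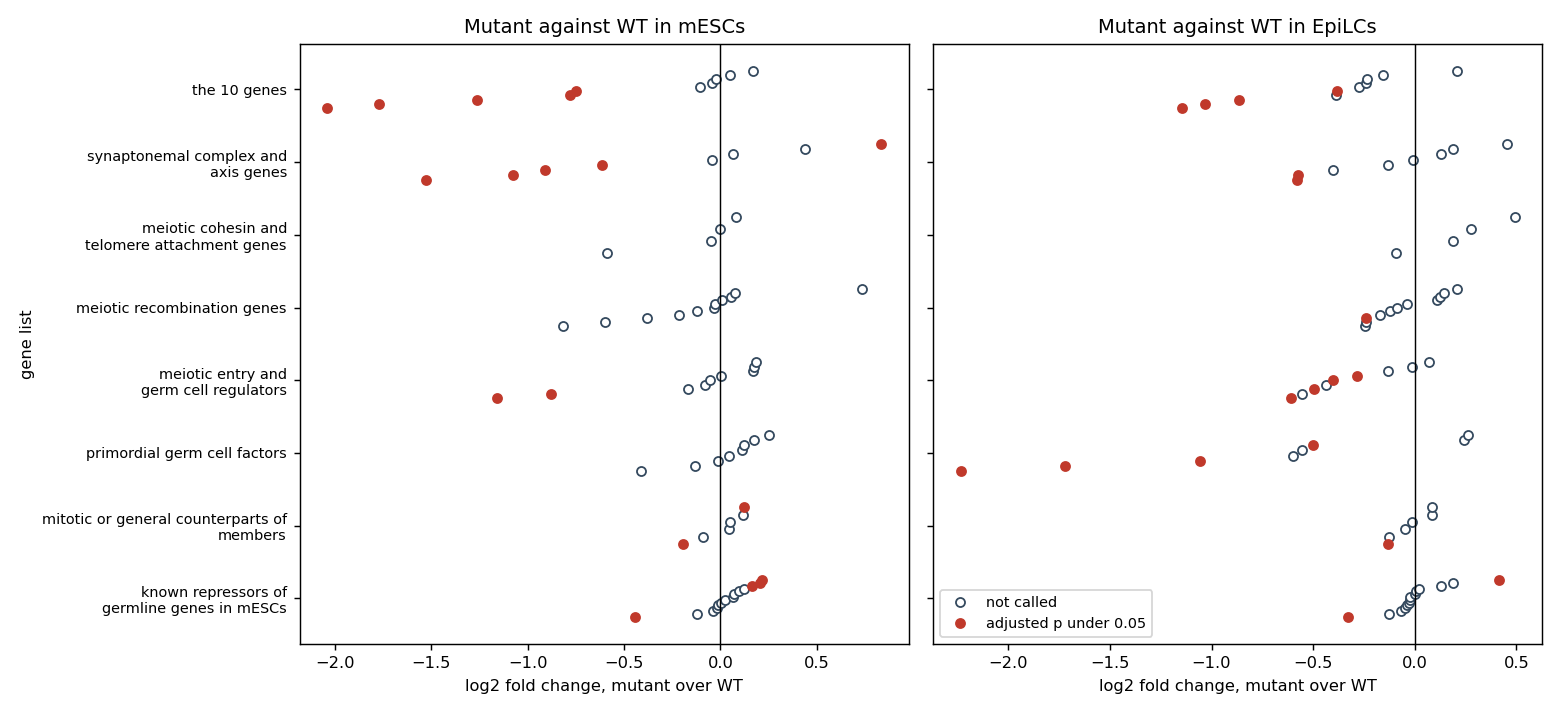
Log2 fold change of mutant over WT for the 10 genes and for each tested gene of 7 further lists, in mESCs (left) and EpiLCs (right); red points have an adjusted p under 0.05. The largest falls in mESCs lie among the 10 genes and the synaptonemal complex list, and in EpiLCs among primordial germ cell factors and the 10 genes.

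Markers of the two-cell-like state, a rare state of mESC cultures, had lower sums in mutant than in WT cells of both states. The 10 such markers summed to 8.69 to 12.0 CPM in mutant and 63.0 to 74.6 CPM in WT mESCs, and to 30.2 to 32.0 CPM in mutant and 105.7 to 128.8 CPM in WT EpiLCs. All 7 that were tested fell in mESCs and 6 of 7 fell in EpiLCs, where 10.1% and 8.82% of all tested genes were called lower. Endoderm markers summed to 7.45 to 8.64 CPM in mutant and 10.3 to 14.0 CPM in WT mESCs, and to 6.94 to 11.7 CPM in mutant and 31.6 to 36.7 CPM in WT EpiLCs. All 7 naive markers were lower in mutant than in WT EpiLCs by the edgeR test, and their sums are given above. The part of these cell states in the results on the 10 genes was not tested. Primordial germ cell markers (Prdm1, Tfap2c, Nanos3, Dnd1 and Kit) summed to 407.6 to 431.1 CPM in mutant and 390.7 to 434.8 CPM in WT mESCs. In EpiLCs they summed to 54.9 to 60.9 CPM in mutant and 79.6 to 83.4 CPM in WT cells. Most of each sum was Kit, which averaged 333.3 CPM in mutant and 335.5 CPM in WT mESCs, and 42.7 CPM in mutant and 60.3 CPM in WT EpiLCs. Markers of spermatogenic cells past meiotic entry (Prm1, Prm2, Tnp1, Acrv1, Piwil1 and Hspa1l) summed to 2.88 to 8.37 CPM in every group, with Prm2 at 0 counts in all 12 libraries. Fibroblast markers summed to 3.23 to 6.04 CPM in mutant and 7.58 to 8.55 CPM in WT mESCs, and to 6.31 to 7.91 CPM in mutant and 3.47 to 5.24 CPM in WT EpiLCs, with Col3a1 at 0 counts in all 12 libraries. Of the 4 tested fibroblast markers, 1 fell in mutant mESCs and Dcn, chosen after its values were seen, rose in mutant EpiLCs (log2 fold change 1.98, edgeR adjusted p = 0.00930).

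The profile of the 10 genes over the 12 libraries was averaged after scaling each gene to unit variance, so each of the 10 is part of it. Smc1b (Pearson r = 0.94) and Taf7l (r = 0.93) lay closest to this profile, while Sycp3 (r = -0.68) and Stag3 (r = -0.43) ran against it. With predicted genes and clone names left out, the 5 other genes most like this profile were Aard (r = 0.98), Lefty2 (r = 0.97), Tex11, Usp26 and Fez2 (r = 0.96 each). Aard averaged 24.8 ± 3.5 CPM in mutant and 56.2 ± 1.7 CPM in WT mESCs, and 58.9 ± 7.7 CPM in mutant and 110.2 ± 5.6 CPM in WT EpiLCs. These values of r describe 12 libraries that fall into 4 groups, and carry no test.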

How the data were processed

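RNA was sequenced in 12 libraries of mESCs and EpiLCs. Per the labels' protocols, total RNA came from TRIzol extraction and library preparation used NEBNext Ultra II reagents. Per the submitters' processing notes, the build was mm10 and the tools named are STAR 2.5.3a, FastQC 0.11.2, edgeR 3.18.1 and Subread's featureCounts. Strand use in counting: not given in the sources used here. The authors deposited raw counts per gene, which were tested here. The CPM values the authors deposited (a score, since columns do not all sum to the usual total) served as a check and, over the 10 genes, correlated with the CPM computed here at r = 1.00. The authors' deposited TPM were used for levels between genes. From the authors' own comparisons, log2 values and p-values were deposited (the EpiLC comparison of mutant with WT, and both state steps), and are cited for Stra8 in EpiLCs.

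Among the 19656 rows, 26 name a spreadsheet date in place of a gene (0.182 to 0.212% of counts per library) and entered neither the library sizes nor the tests. Genes were filtered with filterByExpr, scaled by TMM and fitted by robust quasi-likelihood in edgeR 4.0.16 (R 4.3.3), in 1 model to all 12 libraries. P-values were adjusted over all 13879 tested genes by the Benjamini-Hochberg method and called at 0.05. All 10 genes passed the filter. The common biological coefficient of variation was 4.57%. Intervals are at 95% from the fit. Steps were tested on simulated data. The DESeq2 version used as an alternative was 1.42.0. Annotation used Python 3.11.15 and pandas 2.3.3, figures matplotlib 3.10.9.

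Nothing in the labels tells whether the replicates came from separate cultures, so p-values reflect only how much these libraries vary, and that variation may be technical. Pairs of replicates exceeded sampling noise, with 1.90 to 2.92 for chi-square over its degrees of freedom. The 10 genes and the further lists were chosen with earlier results of these data known. From each further list, the 2 called genes with the largest change in each state are named, with all 6 counterparts. Alternatives were other size factors, DESeq2, other filters, a 2-fold threshold, a replicate block, the compared groups alone and leaving out each library.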

Additional observations from a re-analysis of the deposited data

Results flagged for a closer look

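Sohlh2 stood out because its mutant effect differed between the cell states by a test of the difference itself. The difference, the log2 fold change of mutant over WT in EpiLCs minus that in mESCs, was 0.74 (edgeR adjusted p = 3.95e-06, and 1.53e-06 to 1.16e-04 with each library left out in turn). In mutant cells Sohlh2 averaged 30.9 ± 3.1 CPM in EpiLCs and 18.6 ± 1.4 CPM in mESCs, while in WT cells it averaged 63.0 ± 4.5 CPM in EpiLCs and 63.5 ± 4.0 CPM in mESCs (SD, n = 3 each).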

How the results depend on the processing

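Under relative log expression size factors, DESeq2, both other filters and the fit to the compared groups, each comparison kept its number of called genes among the 10 except that the fit to the compared groups called 5 in EpiLCs and gives no value for the difference of effects. With a fold of at least 2 also required, 3 of the 10 were called for mutant against WT in mESCs, 2 in EpiLCs, 4 for EpiLCs against mESCs in mutant and 4 in WT cells, and 0 for the difference of effects. Over all genes these counts were 534, 247, 3478, 2929 and 339. Among the 534 calls 72 were higher and 462 lower, and among the 247 calls 45 were higher and 202 lower.

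Libraries of 1 replicate number shared little deviation from their group means over all tested genes (correlations of -0.044 to 0.039). A measure over all genes cannot exclude a pairing that affects some of them. With a replicate block, 2 of the 10 were called for the difference of effects, Meioc (log2 0.60, adjusted p = 0.0428) joining Sohlh2, and 2581 genes were called in mESCs and 2251 in EpiLCs.

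Leaving out each library in turn gave 5 calls among the 10 in mESCs, 4 to 5 in EpiLCs, 7 to 8 over the step in mutant cells, 6 to 8 in WT cells and 1 to 3 for the difference of effects. Log2 values that were not called and changed sign ranged, for mutant against WT in mESCs, between -0.36 and 0.34 for Majin, -0.17 and 0.0453 for Stag3, -0.0126 and 0.0986 for Stra8 and -0.25 and 0.0948 for Sycp1. For the step, they ranged between -0.10 and 0.59 for Majin in mutant cells and between -0.0665 and 0.0324 for Sohlh2 in WT cells. For the difference of effects, they ranged between -0.10 and 0.13 for Sycp3 and between -0.33 and 0.00917 for Sycp1. The causes were not tested. Low counts limit Majin, Taf7l and Smc1b.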
